A study of Rattus norvegicus with 6 samples.

Results

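The 32 genes described here build, divide and clear mitochondria. They were chosen by symbol from a list of mitochondrial biogenesis, dynamics and mitophagy genes, and each of the 32 had its own row among the 29884 genes of the count table. By role, 7 are regulators of biogenesis, 8 maintain and transcribe mitochondrial DNA, 10 carry out or control fusion and fission, and 7 belong to mitophagy or mark the outer and inner membranes. Their RNA was measured by RNA-seq of whole trigeminal ganglia, which house the sensory neurons of the face, in 6 wild-type rat samples. For 3 samples, called injury here, the infraorbital nerve had been chronically constricted (CCI-ION), which models neuralgia of the face. For the other 3, called conduit, the constriction was followed by SFM-Gel-light @NGC, which the study's title describes as a light-driven nerve conduit that supplies oxygen by photosynthesis. All 6 samples are therefore injured, and no uninjured ganglion or empty conduit was analysed here. The labels give no strain, sex or age, and do not say whether a sample is a single animal.

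The study's title names mitochondrial function, and the comparison asks whether treated and untreated ganglia differed in the transcripts that set mitochondrial number, shape and turnover. PGC-1 coactivators, encoded by Ppargc1a and Ppargc1b, work with transcription factors such as NRF1, GABP and the oestrogen-related receptors to switch on nuclear genes for mitochondrial proteins. Among these are the factors that copy and transcribe mitochondrial DNA. Mitochondria then fuse and divide under large GTPases, and damaged ones are marked by the kinase PINK1 or by receptors of the outer membrane for removal by autophagy. Sensory neurons depend on this cycle because their long axons need mitochondria far from the cell body.

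The libraries held 40.2 M to 41.9 M counts. Of the 3 batches in the labels, batch 1 is made up of injury samples 1 and 2 and batch 3 of conduit samples 2 and 3. Batch 2 pairs injury sample 3 with conduit sample 1 and alone holds both groups. The labelled day after injury rises by 1 per sample, from 14 to 16 in injury and from 17 to 19 in conduit, so day and group cannot be told apart without assuming a trend. Whether these are true sampling days is unknown. Neuron markers were abundant in every library, with a summed level of 22951 to 25061 CPM (counts scaled to library size) over 11 genes in injury and 21444 to 30513 in conduit. The summed markers of 4 other cell types did not overlap between the groups. Summed Schwann cell markers were 29476 to 36046 CPM in injury and 43115 to 49304 in conduit, and summed red blood cell markers were 4711 to 5664 CPM in injury and 532 to 1324 in conduit. Satellite glia markers summed to 4291 to 4849 CPM in injury and 4855 to 5671 in conduit, and neutrophil markers to 51.9 to 623 CPM in injury and 7.87 to 30.1 in conduit. In conduit sample 2 the 11 skeletal muscle markers with a row summed to 10488 CPM, against 83.0 to 661 in the other 5 libraries. In bulk tissue, fewer cells of a type and less RNA per cell cannot be told apart.

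Promoter sequences are shown first because the biogenesis regulators are themselves transcription factors or their partners, and the letters they are known to read can be looked for in the members' own promoters. RefSeq promoters of the build GRCr8, from 250 bases before to 50 bases after each gene's start, were found for 29 of the 32 members; those of Mfn2, Bnip3l and Fundc1 were not used here. The 5 motifs searched, on either strand, were GCGC and TGCGC parted by any 1 base for NRF1, CCGGAAG for ETS factors such as GABPA, TCAAGGTCA for oestrogen-related receptors, AAGATGGCG for YY1 and TGACGTCA for CREB. The promoters below are those of Ppargc1a, the best-known biogenesis regulator, Gabpa, Tfam, Tomm20 and Pink1, with the matched letters in capitals. They lie at chr14:63634058-63634357, plus strand for Ppargc1a; chr11:37375014-37375313, plus strand for Gabpa; chr20:17355123-17355422, plus strand for Tfam; chr19:71832371-71832670, minus strand for Tomm20; and chr5:155825901-155826200, minus strand for Pink1.
Ppargc1a: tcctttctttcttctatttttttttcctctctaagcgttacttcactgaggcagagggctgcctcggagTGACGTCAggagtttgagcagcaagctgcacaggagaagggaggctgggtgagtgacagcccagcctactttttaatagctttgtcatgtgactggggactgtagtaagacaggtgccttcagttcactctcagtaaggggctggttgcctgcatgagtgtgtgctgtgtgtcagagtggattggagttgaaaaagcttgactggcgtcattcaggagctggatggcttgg
Gabpa: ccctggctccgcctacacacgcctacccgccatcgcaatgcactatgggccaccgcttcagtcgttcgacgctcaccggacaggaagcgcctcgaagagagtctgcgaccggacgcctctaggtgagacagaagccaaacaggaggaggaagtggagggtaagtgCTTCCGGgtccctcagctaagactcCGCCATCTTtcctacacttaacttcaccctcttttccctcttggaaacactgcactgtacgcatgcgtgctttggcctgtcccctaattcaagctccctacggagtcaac
Tfam: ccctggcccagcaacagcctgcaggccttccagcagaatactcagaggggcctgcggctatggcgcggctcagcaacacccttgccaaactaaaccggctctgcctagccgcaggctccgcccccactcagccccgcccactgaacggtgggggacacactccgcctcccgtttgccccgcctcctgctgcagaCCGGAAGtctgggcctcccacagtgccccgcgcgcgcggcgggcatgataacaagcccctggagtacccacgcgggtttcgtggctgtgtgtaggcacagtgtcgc
Tomm20: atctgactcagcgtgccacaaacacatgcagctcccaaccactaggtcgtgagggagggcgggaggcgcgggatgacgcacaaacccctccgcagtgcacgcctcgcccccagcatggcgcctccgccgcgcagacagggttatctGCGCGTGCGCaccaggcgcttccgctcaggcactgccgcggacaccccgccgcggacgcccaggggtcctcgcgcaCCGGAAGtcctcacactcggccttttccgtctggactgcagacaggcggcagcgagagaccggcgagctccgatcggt
Pink1: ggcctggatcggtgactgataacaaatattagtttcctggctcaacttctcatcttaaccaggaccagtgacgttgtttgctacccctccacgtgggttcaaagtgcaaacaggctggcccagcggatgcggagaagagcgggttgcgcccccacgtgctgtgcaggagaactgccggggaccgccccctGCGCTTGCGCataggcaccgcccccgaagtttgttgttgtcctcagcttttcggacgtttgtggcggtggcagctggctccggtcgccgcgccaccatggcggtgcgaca

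The Ppargc1a promoter held the CREB motif, which began 181 bases before the start. Gabpa, which encodes the DNA-binding subunit of GABP, held the ETS motif 85 bases and the YY1 motif 60 bases before its own start. In Tfam the ETS motif began 56 bases before the start. Tomm20 held both the NRF1 motif, 104 bases before the start, and the ETS motif, 28 bases before it, and was the only member with both. Pink1 held the NRF1 motif, 60 bases before the start. Over the 29 members, the ETS motif was found in 13 (44.8%), against 9.63% of 27457 genes in the promoter table and 15.8% of the 12830 of them that were tested for expression. The 13 were Gabpa, Tfam, Polg, Polrmt, Twnk, Ssbp1, Mfn1, Yme1l1, Fis1, Mief1, Phb2, Tomm20 and Timm23, of which 5 are genes of mitochondrial DNA maintenance. The NRF1 motif was found in 5 members (17.2%; Opa1, Oma1, Pink1, Bnip3 and Tomm20), against 8.95% of tested genes. The YY1 motif was in Ppargc1b and Gabpa and the CREB motif in Ppargc1a and Mief1, against 3.22% and 3.02% of tested genes. No member held the oestrogen-related receptor motif, which 0.281% of tested genes held. These motifs do not overlap each other in the promoters shown, and a match describes letters, not binding.

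The 32 transcripts were at nearly the same level with and without the conduit. All 32 passed the filter on low counts, and none passed the test (edgeR quasi-likelihood F test, Benjamini-Hochberg adjusted p under 0.05 over 16478 genes), a threshold that 0.00607% of all genes tested passed. DESeq2 also called 0 of the 32, against 1.19% of the genes it tested. The median log2 fold change, conduit over injury, was 0.05 over the 32 members, with 22 above 0 and 10 below. Over all genes tested it was 0.0017, with 50.5% above 0. Within batch 2 the median over the members was -0.01, with 16 above 0 and 16 below, and 8213 of the 16478 genes tested were above 0. Of the members 29 (90.6%) had a fitted log2 fold change within 0.25 of 0, as did 75.0% of all genes tested; over the 13593 genes tested with a mean level at or above that of the lowest member it was 83.6%. By role the medians were 0.03 for biogenesis regulators, 0.09 for mitochondrial DNA maintenance, 0.04 for fusion and fission and 0.05 for mitophagy and membrane genes. At an unadjusted p under 0.05 there was 1 member, Tfb1m, which was higher in conduit, whereas 5.35% of all genes tested passed that limit, 2.99% higher and 2.36% lower. In CPM, injury and conduit libraries were fully separate for Ppargc1a and Tfb1m, which were higher in conduit, and for Polg2, which was lower. Such separation was seen higher in 5.41% and lower in 4.22% of all genes tested. For Ppargc1a it was not seen in the deposited FPKM.

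Most of these genes had narrow intervals. The 95% intervals of the fold change, from the same fit, lay inside a 2-fold change in either direction for 30 of the 32 members, and inside 1.5-fold for 29. The exceptions at 2-fold were Ppargc1b and Oma1, and Polg2 joined them at 1.5-fold. These 3 had the fewest reads of the members, between 56 and 212 per library, and the part of depth was not tested. Since the fit had no batch or day term, the intervals do not cover those differences. Standard errors of the log2 fold change ran from 0.07 to 0.38, and a p that misses the threshold does not show that the levels were equal.

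**Figure D1:**
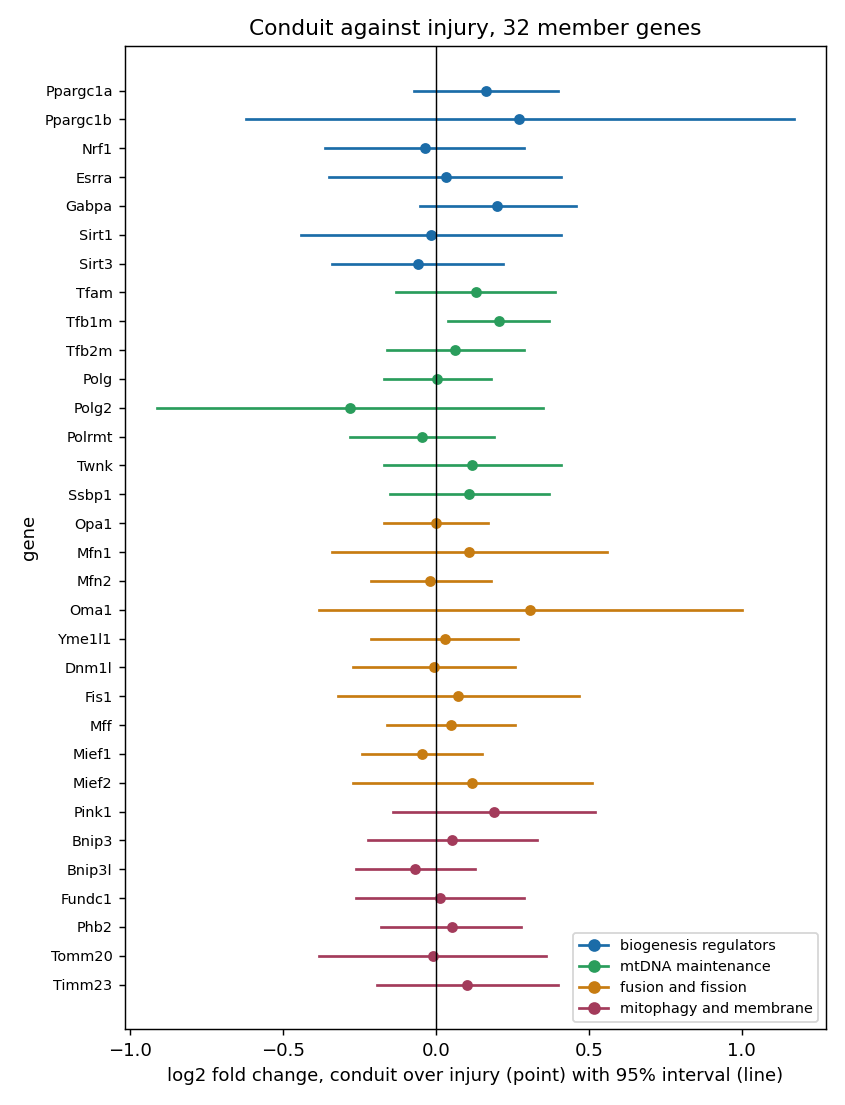
Fitted log2 fold change of the 32 genes, conduit over injury (points), with 95% intervals from edgeR's quasi-likelihood fit (lines), coloured by role. The points lie between -0.28 and 0.31, and the interval of Tfb1m alone excludes 0.

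Among the biogenesis regulators, Ppargc1a stood at 17.0, 17.5 and 18.1 CPM in injury samples 1 to 3 and at 18.8, 21.1 and 19.0 CPM in conduit samples 1 to 3. In CPM all 3 conduit libraries lay above all 3 injury libraries, though conduit sample 1 exceeded injury sample 3 only narrowly. In the deposited FPKM (fragments scaled to gene length and library total) the groups overlapped. There conduit sample 3, at 1.81, lay below injury samples 2 and 3, at 1.84 and 1.86. The log2 fold change was 0.16 (SE 0.10; edgeR adjusted p = 1.0), with an interval of -0.07 to 0.40, which corresponds to between 0.952-fold and 1.32-fold. Within batch 2 the difference was 0.05, and without conduit sample 2 the fitted value was 0.12. Ppargc1b, the closest relative of PGC-1α and a coactivator of the same factors, stood at 2.49, 3.41 and 2.75 CPM in injury and at 3.09, 5.32 and 2.03 in conduit. It was highest and lowest in conduit libraries, so its groups overlapped fully. Its log2 fold change of 0.27 (SE 0.38) became -0.16 without conduit sample 2.

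Pprc1, the remaining coactivator of the PGC-1 family and not among the 32, was 21.6, 20.4 and 21.1 CPM in injury and 17.3, 17.9 and 16.8 in conduit. Every conduit library lay below every injury library, opposite in direction to Ppargc1a. Its log2 fold change was -0.28 (SE 0.09; edgeR unadjusted p = 0.019, adjusted p = 0.799), with -0.29 within batch 2 and a range of -0.32 to -0.22 over the alternatives.

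Nrf1, Gabpa and Esrra encode transcription factors that these coactivators serve. Nrf1, which encodes nuclear respiratory factor 1, was 15.3, 17.5 and 15.2 CPM in injury and 17.6, 15.9 and 13.3 in conduit, with overlapping groups. With an SE of 0.14, the fitted difference was -0.04 on the log2 scale (edgeR adjusted p = 1.0), whereas it was 0.21 within batch 2 and 0.27 with a day term. Gabpa was 28.6, 31.0 and 29.5 CPM in injury and 36.7, 36.0 and 29.8 in conduit. Conduit samples 1 and 2 stood above every injury library, whereas conduit sample 3 lay among them. The fitted log2 fold change was 0.20 (SE 0.11; edgeR adjusted p = 1.0), with 0.31 within batch 2 and 0.39 with a day term. Gabpa shares its start region with Atp5pf on the opposite strand, and no source used here says whether the counting used strand, so reads of overlapping genes may be mixed. Atp5pf itself had a log2 fold change of 0.13.

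Esrra, the oestrogen-related receptor α, was 73.3, 53.6 and 59.8 CPM in injury and 52.9, 64.6 and 73.5 in conduit, with means of 62.2 and 63.7. It was highest in injury sample 1 and conduit sample 3 and lowest in injury sample 2 and conduit sample 1, so its spread lay within the groups. The deacetylase genes Sirt1, whose product acts on PGC-1α in the nucleus, and Sirt3, whose product works inside mitochondria, had log2 fold changes of -0.02 and -0.06. Sirt1 had its lowest levels, 15.1 and 15.9 CPM, in injury sample 1 and conduit sample 3, where Esrra was highest. Its own highest level, 21.6 CPM, was in injury sample 3.

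**Figure D2:**
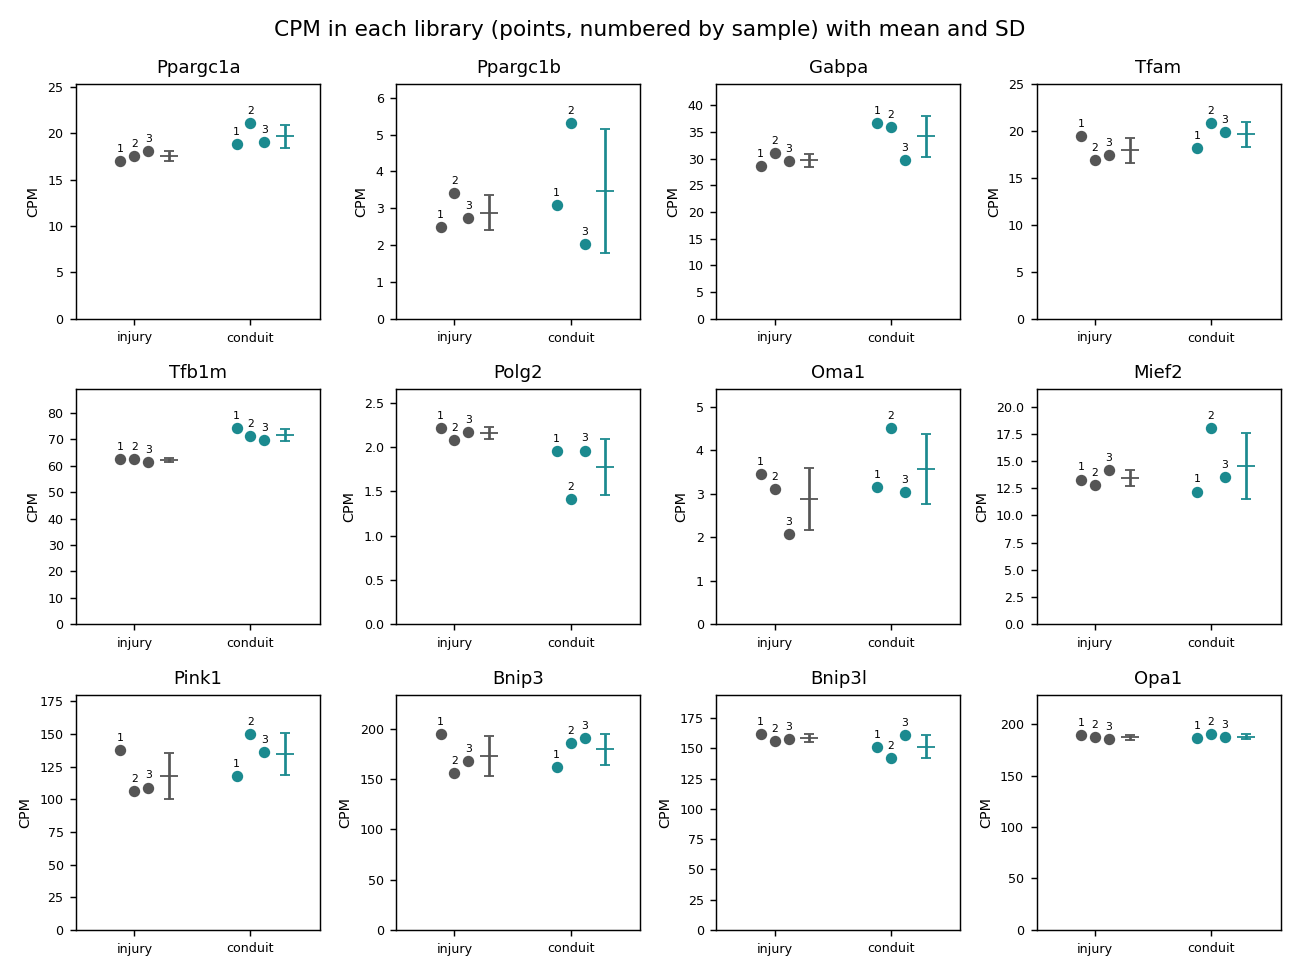
TMM-scaled CPM of 12 genes in each library (points, numbered by sample), with the mean and SD of each group of 3 (bars at the side). Every axis starts at 0. On this scale the groups do not overlap for Ppargc1a, Tfb1m and Polg2, and Opa1 varies least.

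Tfb1m had the smallest p of the 32. It encodes the methyltransferase that modifies the small ribosomal RNA of mitochondria. It was 62.5, 62.6 and 61.2 CPM in injury and 74.1, 71.3 and 69.7 in conduit, and all 3 conduit libraries lay above the tightly grouped injury libraries. The log2 fold change was 0.21 (SE 0.07; edgeR unadjusted p = 0.0212, adjusted p = 0.809; DESeq2 adjusted p = 0.301), which is a 1.16-fold difference with an interval of 1.03-fold to 1.30-fold. It was 0.28 within batch 2, and it ranged from 0.13 to 0.30 over the alternatives. The gene overlaps Tiam2 and Cldn20 on the opposite strand in RefSeq, with levels of 2.78 to 5.91 CPM for Tiam2 and 2.25 to 4.27 CPM for Cldn20. The deposited FPKM imply a length of 9505 bases for Tfb1m. Summed Schwann cell and satellite glia markers were also higher, and summed red blood cell and neutrophil markers lower, in every conduit library. Taken singly, 6 of 8 Schwann cell and 2 of 7 satellite glia markers were higher without overlap. Likewise 13 of 13 red blood cell and 4 of 7 neutrophil markers were lower without overlap. The part of these cell types in the difference was not tested.

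Its paralogue Tfb2m, a factor the mitochondrial RNA polymerase needs to start transcription, was 30.0 ± 1.36 CPM in injury and 31.3 ± 2.31 in conduit (mean ± SD, n = 3 here and below), with overlapping libraries. Tfam, which packages mitochondrial DNA and bends its promoters, was 19.5, 16.9 and 17.5 CPM in injury and 18.2, 20.9 and 19.9 in conduit. Injury sample 1 lay among the conduit libraries. Its fitted difference on the log2 scale was 0.13 (SE 0.11; edgeR adjusted p = 1.0). Polrmt, the polymerase itself, averaged 19.3 ± 0.95 CPM without and 18.7 ± 0.906 CPM with the conduit.

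The replication machinery is represented by 4 members. Polg, the catalytic subunit of the mitochondrial DNA polymerase, was 53.6 ± 2.03 CPM in injury and 53.8 ± 0.886 in conduit. Polg2, its accessory subunit, was 2.21, 2.08 and 2.17 CPM in injury and 1.95, 1.41 and 1.96 in conduit, from 88 to 90 counts in injury and 56 to 81 in conduit. Each conduit library lay below each injury library, with conduit sample 2 the lowest. The fitted log2 value was -0.28 (SE 0.26; edgeR adjusted p = 1.0), -0.15 within batch 2 and -0.13 without conduit sample 2. Twnk, the helicase, and Ssbp1, the single-strand binding protein, had log2 fold changes of 0.12 and 0.11, with overlapping libraries in both cases.

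None of the 10 fusion and fission genes had separate injury and conduit libraries. Opa1, the GTPase that fuses inner membranes, stood at 189.7, 187 and 185 CPM in injury and at 186, 190.5 and 187 in conduit. The highest library exceeded the lowest 1.03-fold, and the log2 fold change of 0.00 had an interval of -0.17 to 0.17. Mfn2, a mitofusin of the outer membrane, was 199, 188 and 189 CPM in injury and 179, 201 and 189 in conduit, again with overlapping groups. The fitted difference was -0.02 on the log2 scale (SE 0.08; edgeR adjusted p = 1.0). Mfn1, its paralogue, varied more, from 42.7 to 58.0 CPM in injury and from 43.3 to 67.0 CPM in conduit, and was lowest in injury sample 1 and conduit sample 3. Per length, the deposited FPKM put Mfn2 above Mfn1 in every library, at a ratio of 3.81 ± 0.787 in injury and 3.52 ± 0.777 in conduit.

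Oma1 and Yme1l1 encode the proteases that cleave OPA1 in the inner membrane. Oma1 had the largest fitted difference of the members, 0.31 (SE 0.29; edgeR adjusted p = 1.0), with levels of 3.46, 3.10 and 2.07 CPM in injury and 3.16, 4.50 and 3.04 in conduit. Only injury sample 3 and conduit sample 2 stood apart, and the other 4 libraries were between 3.04 and 3.46 CPM. The fitted value was 0.11 without conduit sample 2, the difference within batch 2 was 0.60, and the fit with a day term gave 0.95. Yme1l1 averaged 84.3 ± 4.07 CPM without and 86.1 ± 8.90 CPM with the conduit.

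On the fission side, Dnm1l, which encodes the GTPase DRP1 that constricts mitochondria, was 274, 229 and 243 CPM in injury and 224, 247 and 274 in conduit. The highest values were in 1 library of each group, injury sample 1 and conduit sample 3. Its log2 fold change was -0.0038 (SE 0.11; edgeR adjusted p = 1.0). Its adaptors on the outer membrane are encoded by Fis1, Mff, Mief1 and Mief2, whose log2 fold changes were 0.07, 0.05, -0.04 and 0.12. Mief2 was 13.3, 12.8 and 14.2 CPM in injury and 12.2, 18.0 and 13.5 in conduit, so that conduit sample 2 alone exceeded the injury libraries. Its fitted value was -0.05 without conduit sample 2 and -0.22 within batch 2.

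Mitophagy genes were abundant in every library. Pink1, the kinase that accumulates on damaged mitochondria, was 138, 106 and 109 CPM in injury and 118, 150.1 and 136 in conduit. Injury sample 1 lay above conduit samples 1 and 3. The log2 fold change was 0.19 (SE 0.14; edgeR adjusted p = 1.0), and 0.11 both within batch 2 and without conduit sample 2. Bnip3, a receptor gene known to be induced when oxygen is low, was 195, 156 and 168 CPM in injury and 162, 186 and 191 in conduit. The groups overlapped, with the highest library in injury, and the log2 fold change was 0.05 (SE 0.11; edgeR adjusted p = 1.0).

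Bnip3l, which encodes the receptor NIX, clears mitochondria from maturing red blood cells in the mouse. It was 162, 156 and 158 CPM in injury and 151, 142 and 161 in conduit, and conduit sample 3 lay among the injury libraries. The log2 fold change was -0.07 (SE 0.08; edgeR adjusted p = 1.0), with an interval of 0.835-fold to 1.09-fold. In the same libraries all 13 red blood cell markers had their 3 lowest levels in the conduit libraries, with a median log2 fold change of -3.26. Fundc1, a further receptor gene, averaged 51.0 ± 7.31 CPM without and 51.5 ± 1.67 CPM with the conduit. Phb2, an inner membrane prohibitin, and the import subunit genes Tomm20 and Timm23 had log2 fold changes of 0.05, -0.01 and 0.10, each with overlapping libraries.

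Libraries of the same group often differed by more than the group means did, in these genes as in genes at large. The range between the injury libraries exceeded the difference between group means for 26 of the 32 members (81.2%), against 86.9% of all genes tested. The range between the conduit libraries did so for 30 members (93.8%), against 86.3%. All 7 mitophagy and membrane genes were lower in injury sample 2 than in injury sample 1, with a median log2 difference of -0.32, although the labels put these libraries in the same group and batch. All 7 were also lower in injury sample 3 and conduit sample 1 than in injury sample 1. All 7 were higher in injury sample 3 and conduit sample 3 than in injury sample 2. The share of all genes tested that went each way in these pairs was not counted. Between injury samples 1 and 2 the median absolute log2 difference was 0.14 over the 32 members and 0.28 over all genes tested. Over the 32 members the smallest median absolute log2 difference, 0.07, was shared by 3 pairs of libraries, injury sample 1 with conduit sample 3, injury sample 2 with injury sample 3, and injury sample 2 with conduit sample 1. The first and the last of these pairs cross the groups, and the largest difference, 0.20, was between conduit samples 1 and 3. Over all genes tested the same 3 pairs differed by 0.15, 0.15 and 0.18, and conduit samples 1 and 3 by 0.31. Summed neuron markers were 25061 CPM in injury sample 1 and 30513 in conduit sample 3, the highest of the 6, and 24522 and 21444 in injury sample 2 and conduit sample 1; their part in this order was not tested.

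**Figure D3:**
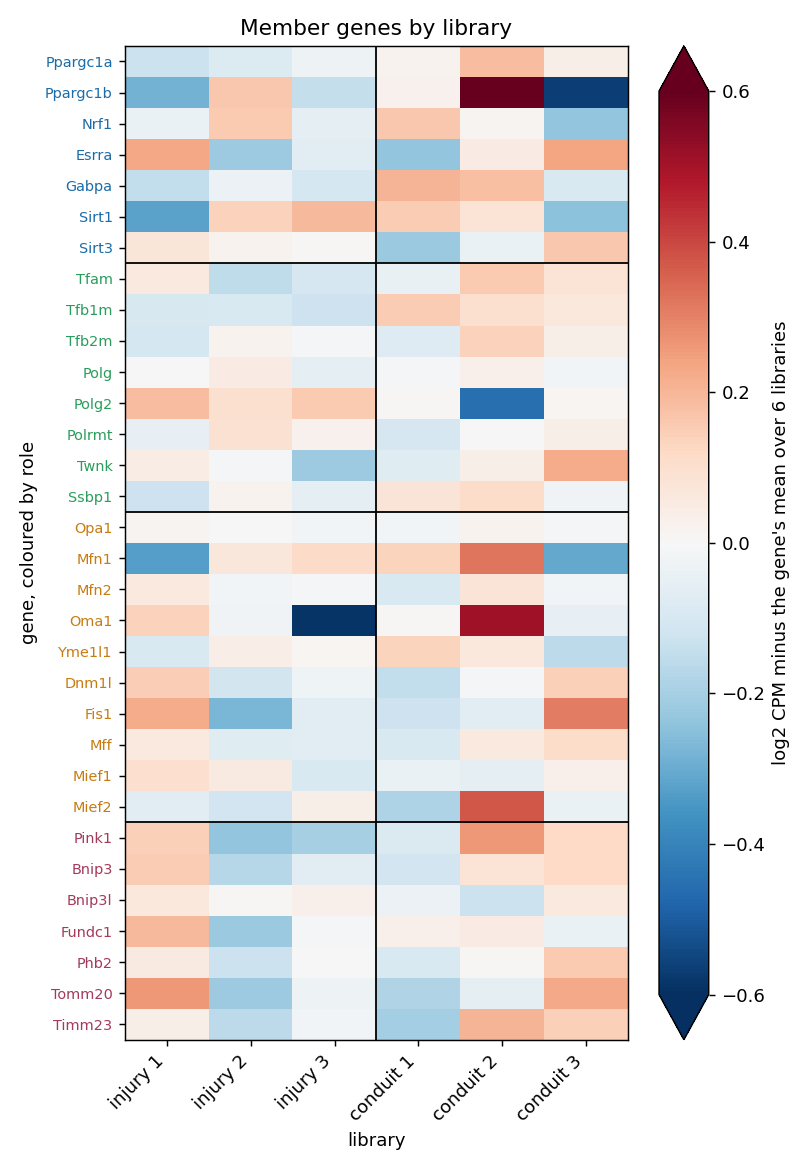
Deviation of log2 CPM from each gene's mean over the 6 libraries, by library (columns) and gene (rows, coloured and separated by role); the line between columns divides injury from conduit. Libraries of the same group differ in sign: mitophagy and membrane genes have a median deviation of 0.14 in injury sample 1, -0.17 in injury sample 2 and 0.12 in conduit sample 3.

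Conduit sample 2 held the highest level of 12 of the 32 members (37.5%), against 12.8% of all genes tested. This is the library in which skeletal muscle markers were abundant, with 10 of the 11 markers at their highest there. Perm1, a muscle gene induced by PGC-1 coactivators and not among the 32, was 2.81, 1.14 and 0.964 CPM in injury and 1.23, 22.4 and 1.31 in conduit. Its log2 fold change of 2.34 (SE 1.25; edgeR adjusted p = 1.0) became -0.36 without conduit sample 2. Ppargc1b, Oma1, Mief2 and Mfn1 were also highest in that library, as were 12 of the 13 genes encoded in mitochondrial DNA. These 13 had a median log2 fold change of 0.21, which was 0.03 without conduit sample 2. The part of muscle RNA in these levels was not tested. Without conduit sample 2 the median over the 32 members was 0.01.

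**Figure D4:**
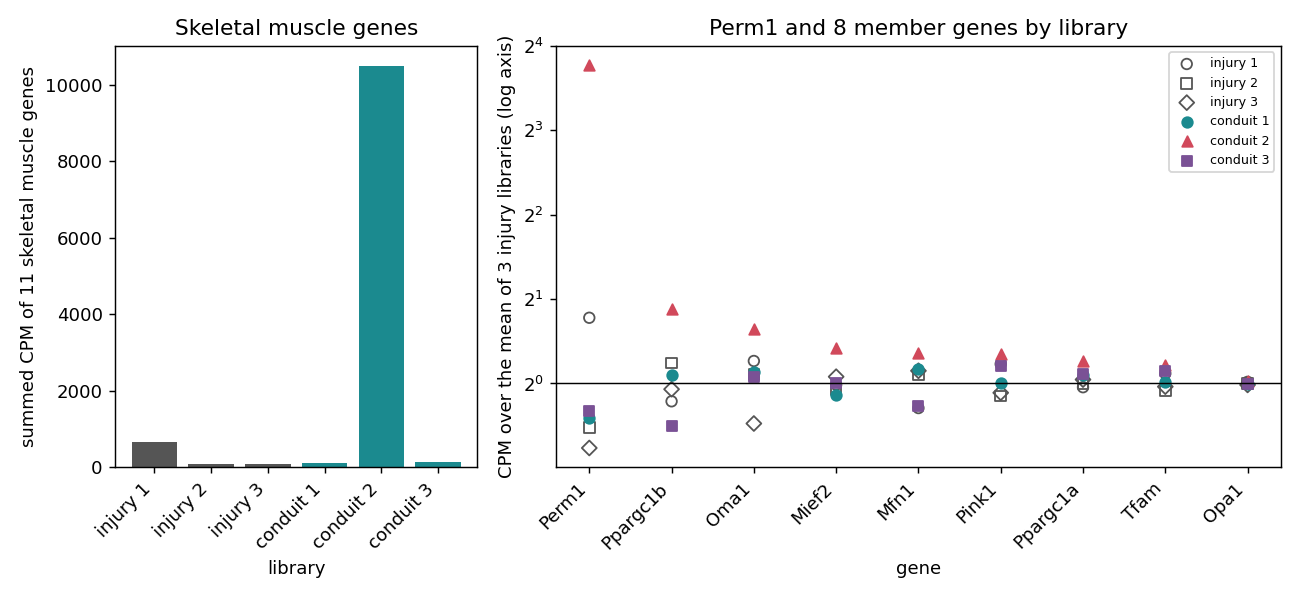
Left, summed CPM of 11 skeletal muscle marker genes in each library. Right, CPM of Perm1 and 8 member genes in each library over the mean of the 3 injury libraries (log axis). Conduit sample 2 has the most muscle RNA and the highest Perm1, at 22.4 CPM, and the highest Ppargc1b, at 5.32 CPM.

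Levels of different genes were compared per length, with the deposited FPKM (fragments scaled to gene length and library total). Mitophagy and membrane genes had the highest median, 60.3 FPKM over the 7, and fusion and fission genes had a median of 29.0. The 7 include the import genes Tomm20 and Timm23, and ran from 25.2 FPKM for Bnip3l to 109.8 for Pink1. Timm23 was the median gene. Mitochondrial DNA maintenance genes had a median of 8.67 FPKM and biogenesis regulators 4.76. Pink1, Bnip3, Tomm20 and Mff were the highest, at 109.8, 109, 108 and 103 FPKM on average over the 6 libraries, and each overlapped the next in its range. Ppargc1b, Polg2, Nrf1, Oma1 and Ppargc1a were the lowest, at 0.979, 1.05, 1.41, 1.75 and 1.86 FPKM. The deposited FPKM imply lengths of 11247 bases for Nrf1 and 9988 for Ppargc1a, and the order depends on the lengths used. Between neighbours in the order of the 32, the ranges overlapped in 25 of 31 cases. Among the fission adaptors Mff and Fis1 were far above Mief1 and Mief2, which stood at 7.45 and 4.69 FPKM. Among the mitophagy receptors Bnip3 exceeded Bnip3l in every library, by 4.15 ± 0.399 in injury and 4.53 ± 0.454 in conduit as a ratio of FPKM. Polg over Polg2 was 9.55 to 10.7 in injury and 10.9 to 15.7 in conduit, the only ratio of the 7 examined whose groups did not overlap. Polg2 itself was lower in conduit without overlap while Polg was nearly level, so the ratio repeats the Polg2 result and adds no separate one. With 3 libraries against 3 an exact two-sided permutation test cannot give a p under 0.1.

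**Figure D5:**
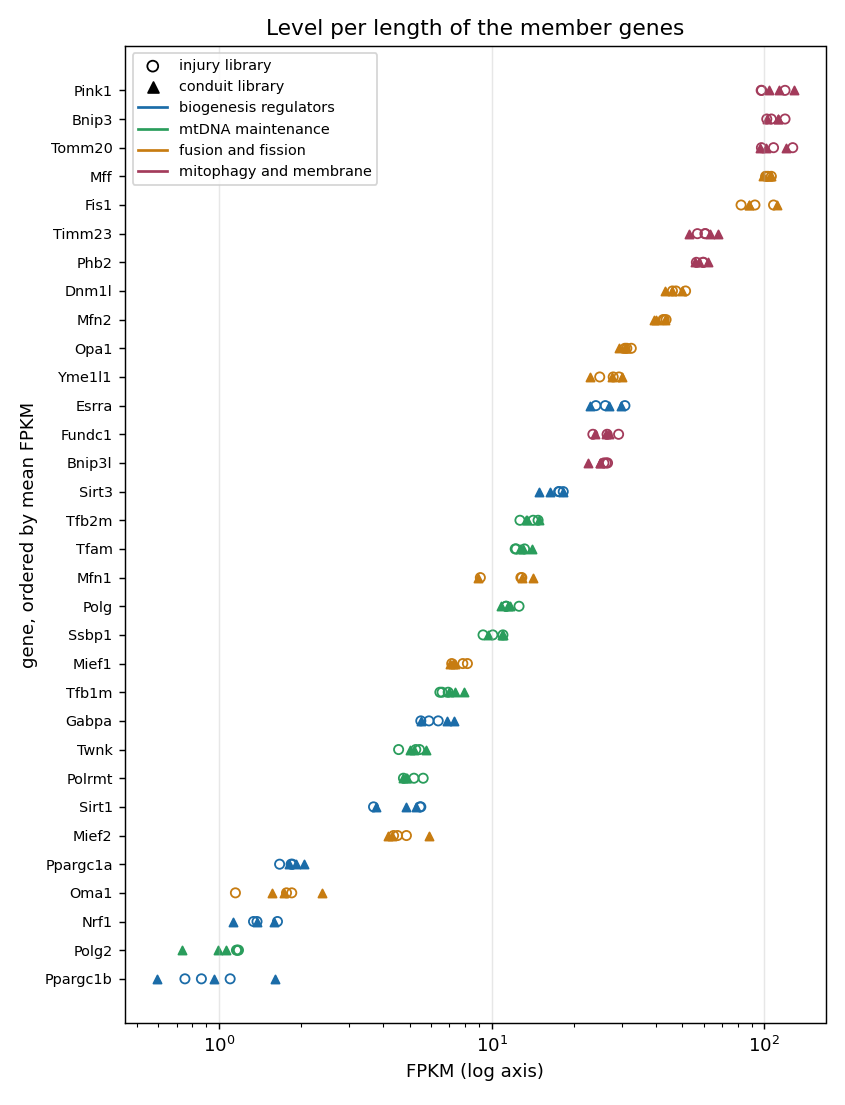
Deposited FPKM of the 32 genes in each library (log axis), ordered by mean, with open circles for injury and triangles for conduit libraries, coloured by role. Levels run from 0.594 FPKM for Ppargc1b in conduit sample 3 to 128 FPKM for Pink1 in conduit sample 2.

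Of 128 further genes listed for biogenesis, mitochondrial DNA, dynamics, mitophagy and protein import, 125 were tested in edgeR, and none passed the threshold. DESeq2 gave an adjusted p for 124, not for Perm1, and none of these passed. Their log2 fold changes ran from -0.96 to 2.34, the latter for Perm1, with a median of 0.02, with 74 above 0 and 51 below, and 8 were higher and 2 lower without overlap between the groups, as were 5.41% and 4.22% of all genes tested. Within batch 2 their median was -0.09, with 42 above 0 and 83 below. At an unadjusted edgeR p under 0.05 there was 1 gene in each direction, Pnpt1 higher and Pprc1 lower. Pnpt1, which encodes an RNA-processing enzyme of mitochondria, was 31.8, 33.2 and 38.6 CPM in injury and 48.6, 44.9 and 42.9 in conduit, with no overlap. Its log2 fold change was 0.40 (SE 0.11; edgeR adjusted p = 0.662), and 0.33 within batch 2.

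By list, the smallest unadjusted p otherwise belonged to Primpol, a DNA primase and polymerase, with a log2 fold change of -0.54 (SE 0.34) and to Inf2 and Chchd3 among dynamics genes, with 0.21 (SE 0.10) and 0.25 (SE 0.11). Inf2 encodes a formin that assembles actin where mitochondria divide, and Chchd3 a protein of the inner membrane folds. The mitophagy adaptor genes Optn and Nbr1 had log2 fold changes of 0.11 and 0.09. The import genes Tomm40l and Dnajc19 had log2 fold changes of -0.18 and 0.18. None of these 7 passed the test (edgeR adjusted p between 0.979 and 1.0). Pld6, Calcoco2 and Tomm6 were not tested, because their counts did not exceed 7 in any library.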

How the data were processed

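RNA-seq libraries of 6 rat trigeminal ganglion samples were analysed. Per the labels' protocols, TRIzol RNA was enriched for mRNA. Tools named in the submitters' processing notes are fastp, HISAT2, SAMtools, HTSeq and DESeq2, with the build mRatBN7.2; no version, annotation or use of strand is stated. For each gene symbol the authors deposited whole-read counts, unscaled. The deposited FPKM values are the same counts per length and library total: in 14394 of 14394 genes with at least 20 counts in every library, both gave the same length within 1%.

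Groups came from the sample titles. In R 4.3.3, genes were filtered with edgeR 4.0.16 filterByExpr (minimum count 10), which left 16478 genes, scaled by TMM and tested with the quasi-likelihood F test (robust, no covariate) at an adjusted p under 0.05. The fit had 4 residual degrees of freedom and a common biological coefficient of variation of 0.295; p-values measure the spread between these samples, which may be technical. Intervals are the fold change ± its SE times the t quantile of the fit's moderated degrees of freedom, at 95%. Log2 CPM used a prior count of 2. Alternatives used DESeq2 1.42.0, limma 3.58.1 (voom, or log2 FPKM with a pseudocount of 1 or 0.1), other scalings and filters, batch, day or replicate number as a term, and left-out libraries. The tests were checked on simulated data. Motifs were searched with Python 3.11.15, and a gene with several starts was counted if any held the motif.

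The members, gene lists and tests were chosen with earlier results of these data known. Values per library are given for Ppargc1a, Tfam, Nrf1, Opa1, Mfn2, Dnm1l, Pink1, Bnip3 and Bnip3l, for the 2 members of each role with the smallest p, and for members without overlap between groups or with an unadjusted p under 0.05; of each other list the 2 genes with the smallest p are named. Ppargc1b, Esrra, Sirt1 and Mfn1 were described by library, the motifs and promoters shown were picked, and the 7 ratios were formed, after their values were seen.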

Additional observations from a re-analysis of the deposited data

How the results depend on the processing

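No member and no other pathway gene was called under any alternative tested. The count over all genes, 1, was 6 with no filter, 209 with DESeq2, 9 and 5 with limma on log2 FPKM at pseudocounts of 1 and 0.1, 0 with the replicate block, the batch term or the day term, 23 without injury samples 2 and 3, and 0 to 38 with 1 library left out. Same-numbered libraries had correlations of deviations of -0.417, 0.0574 and -0.0715, and the block changed no call of a member. Deviations from the mean of only 3 libraries per group cannot show whether replicate numbers pair the samples.

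The median over the 32 members, 0.05, was -0.0045 on log2 FPKM with either pseudocount (all genes tested, -0.04 and -0.05), -0.01 with the batch term and -0.01 in batch 2 alone, and 0.01 to 0.10 with 1 library left out. For mitochondrial DNA maintenance, 0.09, it was 0.03 on log2 FPKM with either pseudocount, 0.06 with the batch term, 0.05 in batch 2 alone, 0.02 without injury samples 2 and 3, and 0.05 to 0.11 with 1 library left out. Mitophagy and membrane genes, 0.05, had -0.09 with the day term, -0.10 without injury samples 2 and 3, and -0.02 to 0.14 with 1 library left out. Biogenesis regulators, 0.03, had 0.21 without injury samples 2 and 3 and -0.04 to 0.15 with 1 library left out, and fusion and fission genes, 0.04, had 0.0011 to 0.07. The causes were not tested. Tfb1m kept an unadjusted p under 0.05 with RLE or upper-quartile scaling, both filters, the non-robust fit, DESeq2 and voom, but not on log2 FPKM, with any added term, or when injury sample 3, conduit sample 1, conduit sample 2 or both injury samples 2 and 3 were left out. Polg2, Oma1 and Ppargc1b had the lowest counts of the members, 56 to 212 per library. The part of depth in their wider intervals was not tested.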

Other observations

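The members highest in injury sample 1 or conduit sample 3 and those lowest there differed in the median length that the deposited FPKM imply, with overlapping ranges. The 13 members with their highest CPM in either library had a median length of 1962 bases, with a range of 980 (Tomm20) to 6652 (Mief1). The 9 members with their lowest CPM there had a median length of 4010 bases, with a range of 1177 (Ssbp1) to 11247 (Nrf1). These libraries are 1 of each group, so this order crosses the comparison, and it was noticed after the values were seen. Over all genes tested, 39.9% were highest and 41.7% lowest in these libraries, and the lengths of those genes were not compared.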
